A study of Mus musculus with 2 samples.

Results

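The red cell membrane and skeleton genes described here are Slc4a1, Sptb, Ank1, Epb41, Epb42, Kel, Ermap and Icam4, a list of 8 genes found by symbol among 21911 protein-coding genes of the mouse reference. Each gene was taken with 20 kb on either side of its body, and peaks of histone H3 trimethylated at lysine 27 (H3K27me3) were counted in that window. Chromatin immunoprecipitation followed by sequencing had been applied to MEL cells, an immortalized mouse erythroleukaemia line that the labels describe as a counterpart of the human K562 line. The samples form 1 group of 2 replicates, which the labels number as biological replicates without saying whether they came from separate cultures. The labels name no treatment, genotype change or second condition, and sex and age are not recorded. With 1 group there is no condition to test, so the values of the replicates and of the gene windows are set side by side without p-values. All positions are on mm10.

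H3K27me3 is laid down by Polycomb repressive complexes and is found over genes held silent. The red cell membrane rests on a meshwork of spectrin tetramers. Ankyrin, with the protein encoded by Epb42, fastens that meshwork to the anion exchanger Slc4a1, and the protein encoded by Epb41 fastens it to actin and to glycophorin C. Kel, Ermap and Icam4 encode surface proteins that carry the Kell, Scianna and Landsteiner-Wiener blood group antigens in humans. Genes of this kind are switched on as erythroid precursors mature, and MEL cells are arrested before that maturation is complete.

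Of the 8 genes, Slc4a1 and Ank1 carried replicated H3K27me3 peaks and the other 6 carried none. The number of replicated peaks was the same, 11 at each, and the Slc4a1 window is much shorter than that of Ank1. Slc4a1 also had more covered bases in each list. These were 6335 against 3395 in replicate 1, 6896 against 5332 in replicate 2 and 6315 against 4143 in the list pooled from both. The larger share covered at Slc4a1 thus went with a shorter window and with more covered bases. Replicated peaks, the authors' subset of peaks derived from both replicates, covered 4565 bases of the Slc4a1 window (7.96%) and 3652 bases of the Ank1 window (1.69%). They covered no base of the windows of Sptb, Epb41, Epb42, Kel, Ermap and Icam4. A peak in the window was thus present at 2 of 8 members (25%), against 30.9% of all protein-coding genes, so the count itself does not set the members apart. The median window of all genes was also covered over 0%, and the mean was 0.901%.

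The peaks that carry the pattern are shown by their sequence on the plus strand, as 300 bases of each peak. These were placed around the summit but kept inside the peak. The stretches at 102365750 and 23020634 therefore begin at the first base of their peaks. Every CG dinucleotide is in capitals because Polycomb complexes are known to favour CG-rich DNA. Slc4a1 is transcribed from the minus strand and Ank1 from the plus strand. The first peak lies beside the outermost Slc4a1 start (chr11:102365750-102366049). That start belongs to a non-coding transcript, the bases shown hold no annotated start, and the coding start lies 470 bp from the peak. The second has the highest −log10 q of the replicated peaks in the Slc4a1 window and lies upstream (chr11:102370398-102370697). The third is the widest of that window and lies downstream (chr11:102335527-102335826). The fourth has the highest signal value of the Ank1 peaks and lies in an intron (chr8:23020634-23020933).
Slc4a1 start: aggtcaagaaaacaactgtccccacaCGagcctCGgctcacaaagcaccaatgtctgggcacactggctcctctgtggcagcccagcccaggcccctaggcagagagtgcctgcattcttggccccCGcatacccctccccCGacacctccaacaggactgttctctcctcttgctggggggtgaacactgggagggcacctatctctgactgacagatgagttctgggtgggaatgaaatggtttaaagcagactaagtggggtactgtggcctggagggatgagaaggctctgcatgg
Slc4a1 upstream: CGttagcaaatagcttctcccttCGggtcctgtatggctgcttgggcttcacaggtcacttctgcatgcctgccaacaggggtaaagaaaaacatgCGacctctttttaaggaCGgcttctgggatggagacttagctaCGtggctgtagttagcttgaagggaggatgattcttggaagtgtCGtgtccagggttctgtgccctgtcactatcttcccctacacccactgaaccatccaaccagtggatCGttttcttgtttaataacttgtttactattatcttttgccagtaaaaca
Slc4a1 downstream: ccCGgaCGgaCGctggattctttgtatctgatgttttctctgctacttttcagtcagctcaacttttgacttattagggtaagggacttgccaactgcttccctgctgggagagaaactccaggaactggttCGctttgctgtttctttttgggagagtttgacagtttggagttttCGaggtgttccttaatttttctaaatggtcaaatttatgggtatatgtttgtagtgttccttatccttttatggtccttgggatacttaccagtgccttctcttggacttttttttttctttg
Ank1 intron: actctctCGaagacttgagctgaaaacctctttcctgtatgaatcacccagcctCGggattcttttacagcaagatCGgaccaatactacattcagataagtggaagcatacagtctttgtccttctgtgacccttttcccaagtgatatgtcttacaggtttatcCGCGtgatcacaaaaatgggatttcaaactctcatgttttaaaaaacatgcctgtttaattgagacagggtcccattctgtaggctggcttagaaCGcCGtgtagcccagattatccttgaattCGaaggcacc

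For contrast, promoters without any peak are shown from RefSeq on GRCm38.p6, each 250 bases before and 50 bases after a gene start, on the strand of the gene. Entries were matched for 6 of the 8 members (Sptb, Epb41, Epb42, Kel, Ermap and Icam4). The Epb41 promoter (chr4:132049029-132049328) is the richest in CG among them and the Kel promoter (chr6:41704276-41704575) the poorest.
Epb41 promoter: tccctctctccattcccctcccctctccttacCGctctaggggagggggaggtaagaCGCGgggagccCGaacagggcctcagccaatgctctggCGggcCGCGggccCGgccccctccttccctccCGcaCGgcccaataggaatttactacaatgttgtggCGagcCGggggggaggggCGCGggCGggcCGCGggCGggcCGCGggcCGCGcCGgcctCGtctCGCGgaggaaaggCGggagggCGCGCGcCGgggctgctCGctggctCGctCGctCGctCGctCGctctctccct
Kel promoter: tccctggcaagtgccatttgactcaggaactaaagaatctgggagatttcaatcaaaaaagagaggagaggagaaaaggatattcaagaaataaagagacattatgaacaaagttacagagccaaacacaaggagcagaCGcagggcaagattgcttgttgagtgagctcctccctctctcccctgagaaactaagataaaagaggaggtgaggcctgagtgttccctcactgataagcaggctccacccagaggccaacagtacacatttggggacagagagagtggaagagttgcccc

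The 4 marked sequences shown for Slc4a1 and Ank1 held 4 to 8 CG dinucleotides each, within the range of 1 to 37 among the matched promoters without a peak. The other replicated peaks of at least 300 bp, cut in the same way, held 0, 1, 3 and 6 at Slc4a1 and 1 and 6 at Ank1. The peak with 0 was the downstream one at 102329318, with −log10 q 2.20. The peak beside the Slc4a1 start had a GC content of 58% with 4 CG dinucleotides in 300 bases, the upstream peak 47% with 7, the downstream peak 41.3% with 5 and the Ank1 peak 43.3% with 8. Among all 16781 replicated peaks of at least 300 bp, the median was 43% GC and 2 CG dinucleotides. The ratio of CG dinucleotides to the number expected from the C and G content had a median of 0.166 there. The peak beside the start was near it, at 0.159, and the upstream, downstream and Ank1 peaks had 0.423, 0.394 and 0.575. The unmarked Epb41 promoter held 37 CG dinucleotides at 74% GC and the unmarked Kel promoter held 1 at 47% GC, against a median of 7 over 32841 RefSeq promoters. CG-rich and CG-poor promoters were therefore both among those without a peak. Each of the 8 matched promoter entries, 3 of them for Epb41, had 0 bases covered in each of the 4 lists. The letters AGATAA, or TTATCT on the other strand, belong to the motif of the erythroid factor GATA1. They occurred once in the upstream Slc4a1 sequence and once in the Ank1 sequence, and in neither of the other Slc4a1 sequences shown. No other replicated peak of at least 300 bp in the Slc4a1 and Ank1 windows held them when cut to the same length. Of all replicated peaks cut to that length, 16.9% held the letters. Of the matched promoters those of Epb42, Icam4 and Kel held the letters once each, and 11.2% of all RefSeq promoters held them.

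Slc4a1 encodes the anion exchanger that swaps chloride for bicarbonate across the red cell membrane. The gene (ENSMUSG00000006574.15) spans 17380 bp of chromosome 11 (102348824 to 102366203), and its window of 57380 bp held 11 replicated peaks. The pooled list, called on the joined reads of the replicates, held 19 peaks over 6315 bases (11%). Replicate 1 held 23 peaks over 6335 bases (11%), and replicate 2 held 32 peaks over 6896 bases (12%). Both replicates thus covered a similar share, replicate 2 with more and narrower peaks (median width 170.5 bp) than replicate 1 (234 bp).

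**Figure D1:**
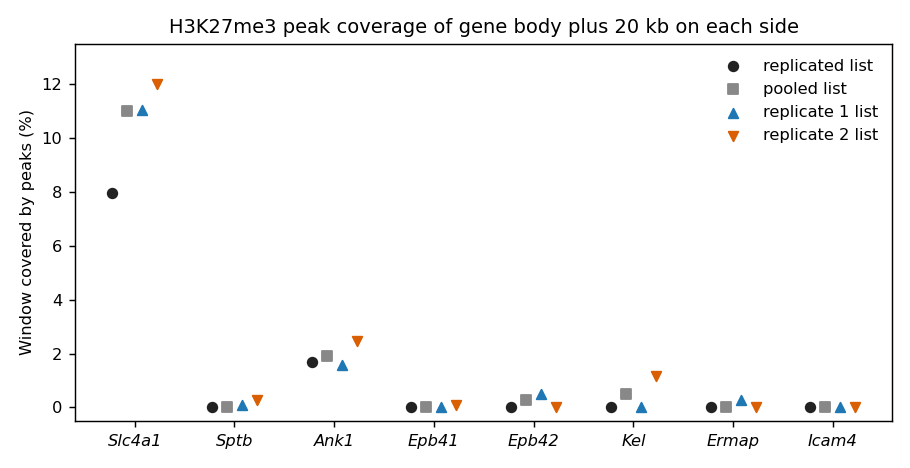
Share of each gene window covered by H3K27me3 peaks, in percent, for the 8 genes in 4 peak lists; each point is 1 list, and lists other than the 2 replicates' own are not independent of them. Slc4a1 lies between 7.96% and 12%, Ank1 between 1.57% and 2.47%, and every other gene at 1.15% or below.

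The coverage of Slc4a1 was high among all genes and less exceptional on its own chromosome. In the replicated list its window stood at percentile 97.2 of the 21911 gene windows and at percentile 88.4 of the 1637 windows of chromosome 11. That chromosome was covered over 1.86% of its length, so the Slc4a1 window was 4.28 times as covered as its chromosome. The ratio was 5.39 in replicate 1 and 4.49 in replicate 2, with percentiles on chromosome 11 of 92.8 and 90.9. On chromosome 11, 48.2% of gene windows held a replicated peak.

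Peaks at Slc4a1 lay upstream, inside and downstream of the gene. In the replicated list 1541 bases lay in the 20 kb upstream, 987 in the gene body and 2037 in the 20 kb downstream. Replicate 1 covered 1060 upstream, 2112 body and 3163 downstream bases. Replicate 2 covered 1610, 1582 and 3704 bases in the same order. In all of these lists the downstream flank was the most covered, at 10.2% by replicated peaks, 15.8% by replicate 1 and 18.5% by replicate 2. Inside the gene, 97 of the 987 replicated bases lay in annotated exons and 890 in introns.

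A cluster of 3 peaks ran from 102369526 to 102371256, with its near edge 3323 bp upstream of the outermost start. It covered 80.4% of its own length of 1731 bp. A second group stood at the start itself: 1 peak (102365750 to 102366159) began 44 bp inside the gene, and another (102364334 to 102364684) lay 1519 bp inside. Slc4a1 has 1 annotated protein-coding transcript, which starts at 102365280, between these peaks. Within 1 kb of that start replicated peaks covered 761 bases, those of replicate 1 covered 746 and those of replicate 2 covered 474. Among replicated peaks the nearest was 470 bp away, and it was 515 bp away in replicate 1 and 462 bp in replicate 2. None of these lists had a peak on the coding start itself. The other 4 annotated starts belong to non-coding transcripts, of which the outermost, at 102366203, had a replicated peak 44 bp away, one of replicate 1 at 36 bp and one of replicate 2 at 158 bp. A lone replicated peak (102355074 to 102355299) lay deeper in the gene, and 4 more lay downstream between 102329318 and 102336612.

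**Figure D2:**
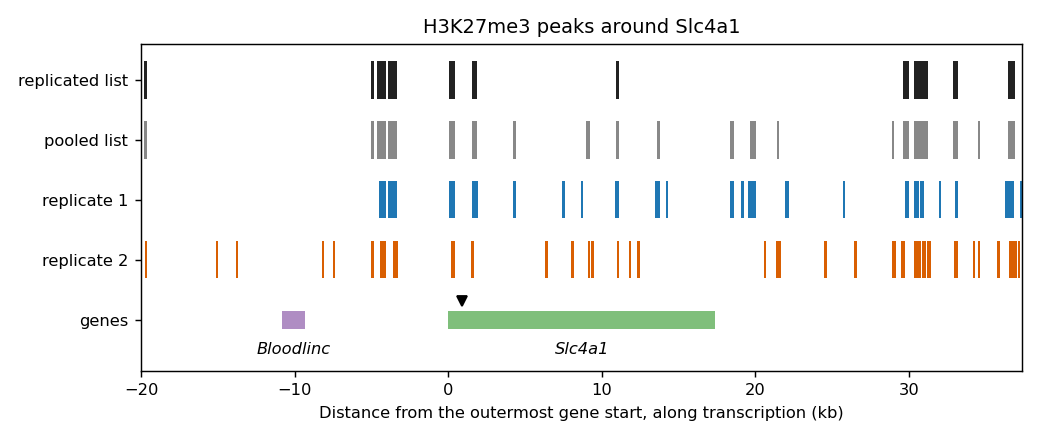
Peaks of the 4 lists in the Slc4a1 window, by distance in kb from the outermost gene start along the direction of transcription; bars are peaks to scale, the green bar is Slc4a1, the purple bar Bloodlinc, and the triangle the start of the protein-coding transcript. Peaks flank the start and gather at the far downstream side, and Bloodlinc holds none.

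The long non-coding RNA gene Bloodlinc (102375549 to 102377020) is the only other annotated gene in the window, 9345 bp upstream of Slc4a1. It is named for its role in red cell maturation in mouse. It had 0 bases covered in each of the 4 lists. The next protein-coding genes on either side, Rundc3a (102393403 to 102402555) and the ribosomal RNA transcription factor gene Ubtf (102304560 to 102319742), also had 0 covered bases inside their bodies in each of the 4 lists.

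Denser peak blocks lay on both sides of Slc4a1, in the sequence between it and these neighbours. In bins of 5 kb along transcription, the bin from 25 to 20 kb upstream of the start was covered over 55.2% by replicated peaks, 41.2% by replicate 1's own peaks and 52.5% by those of replicate 2. The bin from 35 to 40 kb downstream of the start was covered over 33.9%, 37.7% and 38.6% in those lists. The bin from 5 kb upstream to the start had 26.8%, 21.2% and 16%, and the first 5 kb of the gene had 15.2%, 20.4% and 9.48%. The most covered bin within 100 kb lay farther upstream, from 55 to 50 kb before the start, at 59.9% by replicated peaks, 44.9% by replicate 1 and 65.1% by replicate 2. The bin next to it, from 50 to 45 kb upstream, had 23.3% by replicated peaks, and the one from 85 to 80 kb upstream had 18.7%. Beyond 45 kb downstream there was no replicated peak up to 100 kb.

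How far the Slc4a1 peaks joined into stretches depended on the list and on the gap bridged. With gaps of up to 3 kb between replicated peaks bridged, the gene touched 2 stretches, of 1826 bp at its start and of 226 bp. These were shorter than the upstream block of 6615 bp (102385834 to 102392448) and the downstream block of 5289 bp (102324478 to 102329766), which both reached past the 20-kb window. With the same gap, the peaks of replicate 1 formed 1 stretch of 14290 bp inside the gene (102351878 to 102366167), of which 14.8% was covered, longer than its downstream block of 6341 bp, of which 49% was covered. The peaks of replicate 2 formed stretches of 6145 bp and 1516 bp inside the gene, shorter than its downstream block of 21005 bp and its upstream block of 6664 bp. With gaps of up to 10 kb bridged, replicated peaks formed a stretch of 16183 bp that ran across the gene start, with 14.7% covered. It was longer than the downstream block of 12135 bp (33.3% covered) and the upstream block of 6615 bp (54% covered). In the other lists this gap joined the gene and its downstream block, so these could not be compared. The joined stretch had 46779 bp by pooled peaks, 47102 bp by replicate 1 and 67821 bp by replicate 2. Whether the gene or its flanks held the longest stretch thus differed between the lists and between the gaps.

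**Figure D3:**
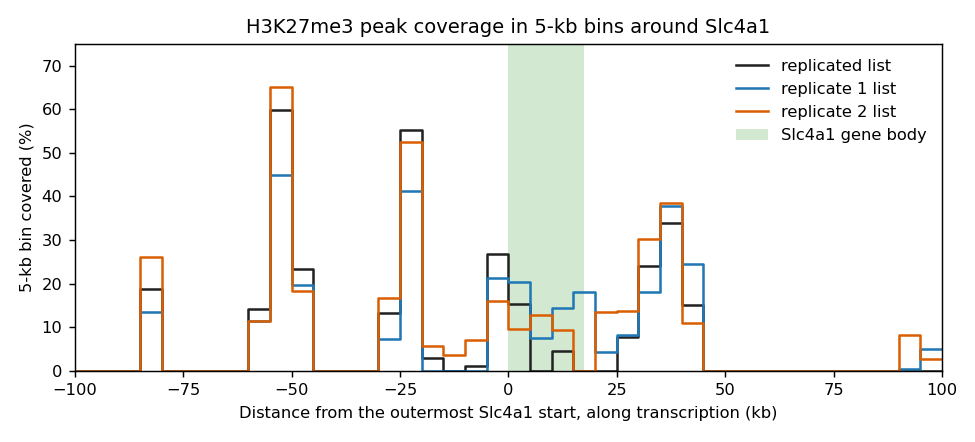
Share of 5-kb bins covered by peaks, in percent, from 100 kb upstream to 100 kb downstream of the outermost Slc4a1 start along transcription; lines are the replicated list and the 2 replicates' own lists, and the shaded band is the gene body. The bins at the start are lower than those from 55 to 50 kb and from 25 to 20 kb upstream, and than the bin from 35 to 40 kb downstream.

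By the authors' own values most Slc4a1 peaks stood above the middle of the replicated list, and the peak beside the start stood close to it. Their signal value is a score that the labels and file descriptions do not define, and −log10 q is the authors' significance of the peak within its list. The 11 replicated peaks had −log10 q between 0.114 and 2.31, with a value of at least 2 in 3 of them (27.3%), against 10.9% of all replicated peaks. That share rests on few peaks, and its difference from the whole list was not tested. In −log10 p, 10 of the 11 stood above percentile 50 of the replicated list, and their median percentile was 74.4. In the single lists 18 of 23 peaks stood above percentile 50 in replicate 1 and 17 of 32 in replicate 2. The 3 replicated peaks with a −log10 q of at least 2 were 1 upstream and 2 downstream. The upstream one was at 102370277 (−log10 q 2.31, signal value 4.79). The downstream ones were at 102334955 and 102329318 (both 2.20, with signal values 4.88 and 4.51). The peak beside the start reached 0.980, with a signal value of 3.64. Its −log10 p was at percentile 53.6, and that of the upstream peak at percentile 94.2. No peak inside the gene body reached a −log10 q of 2 in the replicated list.

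The replicates differed in which Slc4a1 peaks were strong, although −log10 q also depends on the list it was computed in. Of 23 peaks in replicate 1, 14 had a −log10 q of at least 2, and of 32 peaks in replicate 2, 6 did; over the whole lists these shares were 30.8% and 12%. The peak beside the start had −log10 q 2.69 in replicate 1 and 0.800 in replicate 2, and the strongest upstream peak 4.98 and 0.800. The downstream peak at 102334955 was strong in both, at 4.21 and 3.98, as was the one at 102329318, at 3.38 in each. Of the 11 replicated peaks 9 overlapped a peak in both single-replicate lists, and the other 2, both upstream (102371032 to 102371256 and 102385834 to 102385983), had none in replicate 1. The replicates shared 2104 covered bases in the Slc4a1 window, a Jaccard index of 18.9% of the bases covered in either, against 15.8% over the whole genome. Of the peaks in the window, 43.5% in replicate 1 and 31.2% in replicate 2 overlapped a peak of the other replicate, close to the genome-wide 44.9% and 29.8%.

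Ank1 encodes the ankyrin that ties spectrin to the anion exchanger. The gene (ENSMUSG00000031543.18) spans chromosome 8 from 22974844 to 23150497, and its window of 215654 bp held 11 replicated peaks. Replicate 1 held 18 peaks over 3395 bases (1.57%), and replicate 2 held 27 peaks over 5332 bases (2.47%). Both shares lay below those of Slc4a1: the share covered at Slc4a1 was 4.70 times that at Ank1 by replicated peaks, 7.01 times by replicate 1 and 4.86 times by replicate 2. Chromosome 8 was itself sparsely covered, at 0.173%, so relative to its chromosome the Ank1 window stood 9.78 times higher, more than the 4.28 times of Slc4a1. The Ank1 window was at percentile 95.1 of the 1038 windows of chromosome 8, of which 18.6% held a replicated peak, and at percentile 86.6 of all windows.

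The replicated Ank1 peaks formed 1 main cluster inside the gene and away from every annotated coding start. Of the replicated bases, 3002 lay in the body, all in introns, 650 upstream and 0 downstream. When joined within 3 kb, 6 replicated peaks formed a stretch of 5287 bp (23018296 to 23023582), with 49.3% of its bases covered. The peaks of replicate 1 gave a stretch of 5149 bp (23018253 to 23023401) with 37.8% covered. Those of replicate 2 gave one of 5223 bp (23018350 to 23023572) with 39.8% covered. The stretch held 2607 of the 3652 replicated bases, 1946 of 3395 bases in replicate 1 and 2078 of 5332 in replicate 2. In replicate 2 it held 8 of 27 peaks, and most of the others were scattered through the gene body. Ank1 has alternative promoters and 13 annotated coding starts. The nearest to the cluster starts at 23035099, and its nearest replicated peak was 11517 bp away. The smallest distance from any coding start to a replicated peak was 7979 bp, against 5108 bp to a peak of replicate 1 and 8743 bp to one of replicate 2. Mir486, a microRNA gene inside Ank1 (23142555 to 23142682), and the homeobox gene Nkx6-3, which follows 2771 bp after Ank1, had 0 covered bases in each of the 4 lists.

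**Figure D4:**
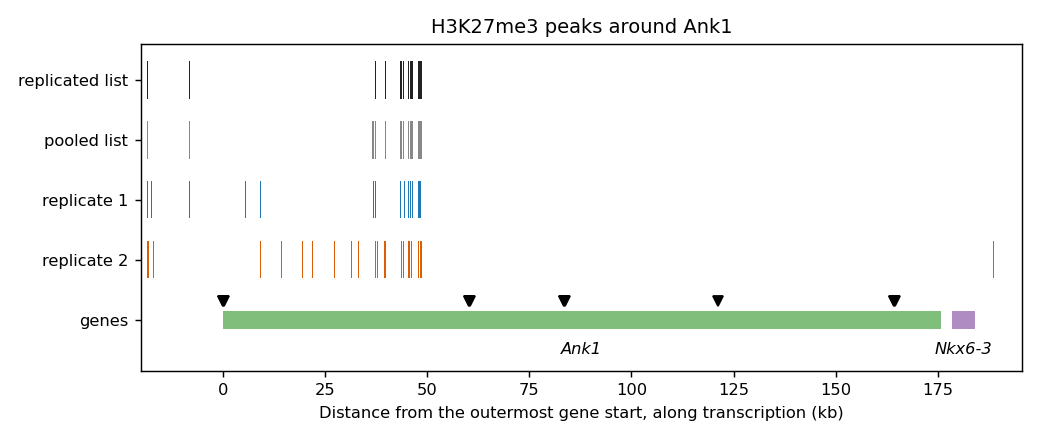
Peaks in the Ank1 window in the same 4 lists, by distance in kb from the outermost gene start along transcription; the green bar is Ank1, the purple bar Nkx6-3, and triangles are annotated protein-coding starts. The peaks gather between the first and the next group of starts.

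The Ank1 peaks stood lower in the authors' values than those of Slc4a1. Their −log10 q in the replicated list ran from 0.114 to 0.980, so 0 of 11 reached 2, against 3 of 11 at Slc4a1 and 10.9% of all replicated peaks. With so few peaks a count of 0 is near that share. In −log10 p, 4 of the 11 stood above percentile 50 of the list, with a median percentile of 35.7, against 74.4 at Slc4a1. In the single lists 13 of 18 peaks stood above percentile 50 in replicate 1 and 9 of 27 in replicate 2. A −log10 q of at least 2 was reached by 4 of the 18 (22.2%), the highest at 4.06. In replicate 2 it was reached by 1 of the 27 (3.70%), at 3.25. Over the whole lists these shares were 30.8% and 12%. Of the 11 replicated peaks 9 overlapped both single-replicate lists. The replicates shared 1325 covered bases, a Jaccard index of 17.9%.

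Of the other 6 genes, 5 had a few peaks in the list of one or the other replicate, none of which shared a base with a peak of the other replicate, and Icam4 had none. Sptb, which encodes the beta chain of spectrin, had 1 peak of 140 bp in replicate 1 and 3 peaks over 460 bases in replicate 2. All 4 lay upstream of the gene, none shared a base with the other replicate, and the pooled list held none. Epb41 had 1 peak of 140 bases in replicate 2, upstream, and none in the other lists. Epb42, whose protein binds both the anion exchanger and ankyrin, had 304 bases in replicate 1, of which 140 lay in the gene body, and 158 bases in the pooled list, but none in replicate 2.

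The blood group genes were similarly bare. Kel had 4 peaks over 670 bases in replicate 2, all upstream between 41717539 and 41720689, and 2 peaks over 300 bases in the pooled list within that stretch, but none in replicate 1. Ermap had 146 bases in replicate 1, downstream, and none elsewhere. Icam4 (chromosome 9, 21029373 to 21030595) had no peak in any of the 4 lists, and neither did the bodies of the adhesion genes Icam1 and Icam5 on either side of it. The nearest replicated peak to an Icam4 coding start was 41297 bp away. For Sptb that distance was 83711 bp, for Kel 40104 bp, for Ermap 34411 bp, for Epb42 27618 bp and for Epb41 23761 bp.

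Across these 6 windows together, replicated peaks covered 0%, pooled peaks 0.0797%, and the peaks of replicates 1 and 2 covered 0.103% and 0.221%. The widest coverage of a single one was 1.15%, for Kel in replicate 2. Counting Slc4a1 and Ank1 again, 5 of the 8 members had a peak in replicate 1, against 42.2% of all genes, and 5 of 8 had one in replicate 2, against 49.8%. The pooled list had 4 of 8, against 39.2%. Both replicates had a peak at 3 members, Slc4a1, Ank1 and Sptb, against 39% of all genes. Around annotated coding starts, taken with 1 kb on either side, Slc4a1 was the only member marked, in each of the 4 lists. Of all genes, 3.89% were marked there by replicated peaks, 5.81% by pooled peaks, 5.83% by replicate 1 and 8.1% by replicate 2.

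The count of members with a replicated peak moved with the window. Slc4a1 and Ank1 were the 2 members with one in the gene body alone, where 11.5% of all genes had one, and with 5 kb on each side, where 16.7% had one. With 50 kb on each side all 8 members had one, against 45.4% of all genes. Of replicated peaks with a −log10 q of at least 2, 1 member, Slc4a1, had one within 20 kb, against 9.28% of all genes, and 0 members had one within 1 kb of a coding start, against 0.788%.

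Most other genes of the red cell membrane had no replicated peak. Of 43 such genes, 13 (30.2%) had a replicated peak in the window, against 30.9% of all genes, and the median covered share was 0% as for all genes. By role, 2 of 10 skeleton genes had one, 2 of 12 transporters and channels, 6 of 16 blood group and adhesion genes, 1 of 3 raft proteins and both receptor genes. A replicated peak lay within 1 kb of a coding start at 2 of the 43 (4.65%), Add3 and Bcam, close to the 3.89% of all genes; Bcam was named after its values were seen. The 6 most covered were Cd59a, an inhibitor of complement (5.99%), Add2, the beta subunit of adducin that caps actin in the skeleton (4.84%), Epor, the erythropoietin receptor (4.34%), Sema7a (1.88%), the gamma adducin gene Add3 (1.54%) and Art4 (1.23%). All were less covered than Slc4a1. The 3569 bases at Cd59a all lay downstream of the gene and the 1935 bases at Epor all upstream, while 5134 of the 6576 bases at Add2 lay in the gene body. In the single lists Add2 had 6.17% in replicate 1 and 6.29% in replicate 2, and Epor 4.80% and 4.16%.

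Relatives of the members in the same protein families included several that were densely covered. Of 37 annotated relatives 20 (54.1%) had a replicated peak in the window, against 2 of the 8 members themselves and 30.9% of all genes, and their median covered share was 0.127%, against 0% for all genes. A longer window has more room for a peak. Single windows of the relatives ran from 46964 bp to 668666 bp, and the median over all genes was 57433 bp. Among the most covered relatives, Btn1a1 had a window of 48910 bp and Slc4a5 one of 125118 bp. Whether window length bears on the difference was not tested. Some relatives are neighbours and share peaks, as Btn1a1 with Btn2a2 and Tgm5 with Tgm7. The butyrophilin relatives of Ermap had a peak at 5 of 5, with 8.11% of the window at Btn1a1, 8.10% at Btn2a2 and 7.43% at Btnl9, against 0% at Ermap. The transglutaminase relatives of Epb42 had one at 4 of 6, the most covered being Tgm6 at 5.22%, against 0% at Epb42. The spectrin relatives of Sptb had one at 3 of 3. For Slc4a1 and Ank1 the order in the window was the other way. Of the Slc4a1 relatives in the bicarbonate transporter family, 3 of 9 had a peak. The highest, Slc4a5 at 6.99%, was below the 7.96% of Slc4a1. Of the 8741 bases at Slc4a5, 8403 lay in the gene body, against 987 of 4565 at Slc4a1. Of the relatives of Ank1, 1 of 2 had a peak, with 0.278% covered, below the 1.69% of Ank1. Of the relatives of Kel 1 of 6 had a peak, of Icam4 1 of 3 and of Epb41 2 of 3. No test was made of these counts.

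**Figure D5:**
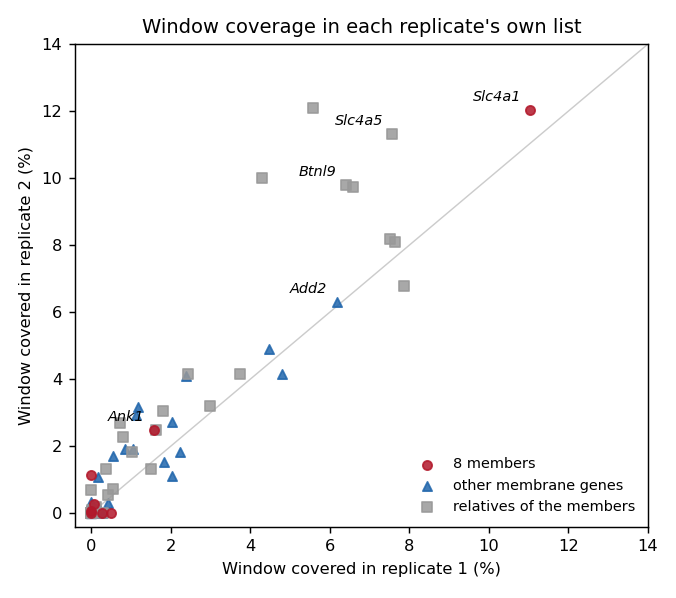
Share of each gene window covered in the list of replicate 1 (x axis, percent) against the list of replicate 2 (y axis, percent) for the 8 members, 43 other membrane genes and 37 relatives; the line marks equal shares. Slc4a1, at 11% and 12%, lies at the upper right, and most points lie near 0.

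The genes most like Slc4a1 in coverage, by the larger of the differences in the replicates, were Adar (11.2% in replicate 1 and 12.1% in replicate 2), Olfr311 (11.1% and 11.8%) and Svs3b (10.7% and 12.1%), with largest differences of 0.207, 0.262 and 0.295 percentage points. The likeness rests on 2 samples. Their shares in the replicated list were 12.8%, 11.6% and 7.61%, so genes alike in the single lists still differed in the replicated list.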

How the data were processed

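H3K27me3 peaks of 2 replicates of MEL cells were analysed. According to the text deposited with the files, each replicate's list came from its own mm10 alignment and 1 control shared by both, the pooled list from both alignments, and the replicated list from these 3. The sources used here do not give the caller, the aligner or the rule for replicated peaks. The authors deposited for each peak a signal value, a score of unstated definition, with −log10 p and −log10 q. The lists hold 38298 replicated, 69721 pooled, 70901 and 106995 peaks (replicates 1 and 2) on chromosomes 1 to 19, X and Y. They hold no read counts, so depth is unknown and no counting interval can be given; sequence outside peaks may still carry the mark. Whether separate cultures were used for the replicates is not stated, so their spread may be technical.

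Gene bodies came from GENCODE M21 on GRCm38, which mm10 names, with the longest gene kept per symbol. Covered bases are the union of peaks in the window, and 1 bp of overlap counted. Percentiles count ties at their midpoint. The 8 members, the lists of 43 membrane genes and 38 relatives (Sptbn5 was not matched) and the comparisons were chosen with earlier results of these data known. Named genes are the members, the 6 most covered of each list, the neighbours of Slc4a1 and the 3 genes nearest to it in both replicates; genes outside this rule were named because they lie in or beside a member's window or share peaks with another relative. A gene that the rule selects is not reported here. The mm9 list was not used, since builds were not mixed. Python 3.11.15, numpy 2.4.6 and pandas 2.3.3 were used; on simulated peaks, covered bases and peak counts were wrong in 0 of 500 windows.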

Additional observations from a re-analysis of the deposited data

How the results depend on the processing

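Slc4a1 was the most covered member in the replicated, pooled and single-replicate lists, but its covered share depended on the list and the window. It was 3.35% with replicated peaks of −log10 q of at least 2, 11% in the pooled list, 5.68% in the gene body alone and 9.50% with 50 kb on each side, and 11% to 12% in the lists of single replicates. Its percentile was 98.3 with −log10 q of at least 2, 98.4 in the upper 50% by signal value, 96.6 for gene bodies, 98.3 with 50 kb, and 97.8 to 98.4 in single replicates. Of the other 7 members, 0 had a peak with −log10 q of at least 2 (9.28% of all genes did), 3 in the pooled list (39.2%), 7 with 50 kb (45.4%) and 4 in each single replicate (42.2% and 49.8%), against 1 as reported (30.9%). Their joint covered share, 0.462% as reported, was 0% with −log10 q of at least 2, 0.196% in the upper 50% by signal value, 1.10% with 50 kb and 0.504% to 0.835% in single replicates. With −log10 q of at least 2, 0 members were marked at a coding start (0.788% of all genes were), against 1 as reported (3.89%). Of the 43 other membrane genes, 13 as reported, 4 had a peak with −log10 q of at least 2, 3 in the gene body alone (11.5% of all genes did), 4 with 5 kb (16.7%), 22 with 50 kb and 18 to 20 in single replicates. Fewer peaks or bases enter under the stricter settings by construction. No paired analysis was possible because there is 1 group.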
